A study of Equus asinus with 6 samples.

Results

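Blood vessels are lined by endothelial cells, and 10 genes that mark these cells or hold them together were followed in the longissimus dorsi muscle of the back of Guangling-breed donkeys aged 24 months. The genes were chosen by symbol: CLDN5, ESAM, CDH5 and PECAM1 of the junctions between cells, VWF, EGFL7, ROBO4, NOS3 and EMCN of secretion, signalling and the cell surface, and the transcription factor ERG. All 10 had a single row among the 20873 genes of the count table, and all 10 passed the filter on low counts that left 15933 genes for testing. Intramuscular fat (IMF) is the fat held between and within muscle fibres. The study compared muscle of high IMF content (3 libraries) with muscle of low IMF content (3 libraries), all from the same breed, age and muscle, and asked which transcripts differ with fat content. The measured fat content and the animals' sex were not analysed here, and the labels name no treatment. The labels do not state whether each library is a different animal. The p-values therefore cover only the variation among these libraries, which may in part be technical.

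In an endothelial sheet, VE-cadherin (CDH5) forms the adherens junction, claudin-5 (CLDN5) seals the tight junction, and ESAM and PECAM1 join neighbouring cells by binding like molecules across the gap. ERG, a factor of the ETS family, keeps the endothelial programme on and is known to drive several of these genes, CDH5 and CLDN5 among them. Skeletal muscle is dense in capillaries that run along the fibres, and fat tissue carries a capillary bed of its own. In whole muscle, fewer endothelial cells and less RNA per cell cannot be told apart.

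The libraries held 39052998 to 47494157 assigned reads, and each of the 10 genes had 429 to 12306 reads in every library, so counting error was small beside the spread between libraries. In keeping with the labelled tissue, 10 genes of muscle fibres were abundant and summed to 104156 and 103869 CPM (counts per TMM-scaled library total) in high IMF replicates 1 and 2, 173317 in replicate 3 of that group, and 119063, 177113 and 170427 CPM in the low IMF libraries in order of number. Low IMF replicates 2 and 3 were nearly alike across all genes. Their counts differed with a chi-square per degree of freedom of 7.73, against 119.1 to 570.1 for the other pairs of libraries, which is still more than sampling noise. The closest of the other pairs crossed the groups: high IMF replicate 3 gave 119.1 and 120.4 against low IMF replicates 2 and 3. Against high IMF replicates 1 and 2 it gave 570.1 and 196.5.

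Per gene length, the secreted protein EGFL7 had the highest level of the 10 and the nitric oxide synthase NOS3 the lowest. In the deposited FPKM (reads scaled to gene length and library total), EGFL7 measured 56.0 ± 4.33 (SD over 6 libraries), PECAM1 45.1 ± 13.7 and ESAM 41.0 ± 10.2. CDH5 followed with 35.2 ± 10.9 FPKM, CLDN5 with 32.2 ± 8.12 and ROBO4 with 26.6 ± 2.63. VWF measured 18.6 ± 7.06 FPKM, ERG 6.57 ± 1.91, EMCN 5.66 ± 1.76 and NOS3 3.57 ± 0.929. Only the steps from VWF to ERG and from EMCN to NOS3 held in 6 of 6 libraries. The other neighbours in this order changed places in 1 to 3 of the 6 libraries, and CDH5 exceeded CLDN5 in 3. Dividing counts by FPKM gave a gene length of 1.9 kb for ESAM and 9.5 kb for EMCN, so EMCN ranked low per length although it had more reads than ERG in every library.

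**Figure D1:**
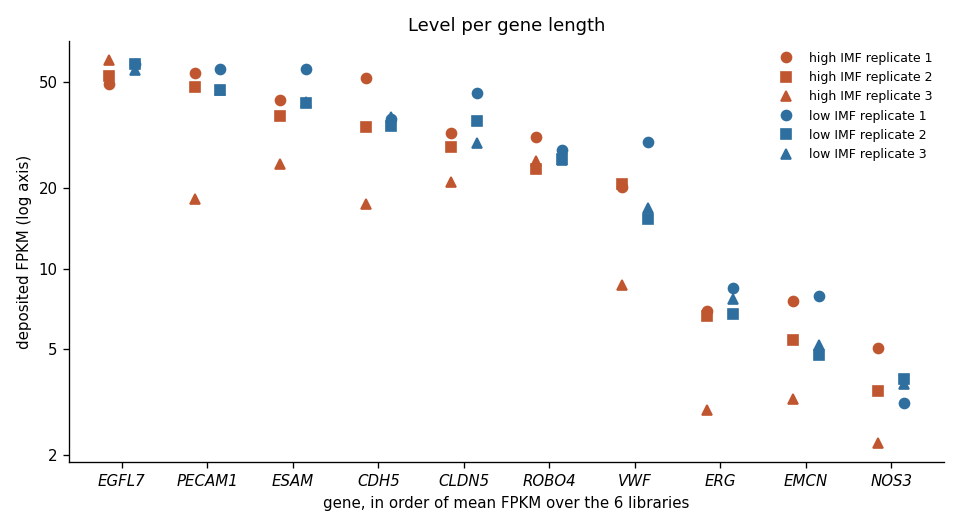
Deposited FPKM of the 10 genes (log axis) in each library, in order of the mean over 6 libraries. High IMF replicate 3, the orange triangle, is the lowest point for 8 of the genes and the highest for EGFL7.

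The junction genes CLDN5 and ESAM had lower TMM-scaled CPM in each high IMF library than in any low IMF library, an order that did not hold in the deposited FPKM, which are scaled to the library total alone. CLDN5 measured 70.2, 64.1 and 60.5 CPM in the high IMF libraries, in order of replicate number as throughout, and 110.3, 99.6 and 80.6 CPM in the low ones. The highest of the high IMF libraries thus stayed below the lowest of the low IMF libraries on this scale, whereas in FPKM high IMF replicate 1 (32.3) lay above low IMF replicate 3 (29.7). The means were 64.9 ± 4.91 and 96.9 ± 15.1 CPM (SD, n = 3), 1.49-fold higher in low IMF muscle. ESAM, an immunoglobulin-type adhesion molecule found with tight junctions, measured 68.8, 62.0 and 52.2 CPM in the high IMF libraries and 100.8, 86.1 and 84.7 CPM in the low ones. The groups were again apart in CPM, with means of 61.0 ± 8.38 and 90.5 ± 8.91, a 1.48-fold difference. In FPKM high IMF replicate 1 (43.0) reached past low IMF replicates 2 (42.0) and 3 (42.4). The ratio of CLDN5 to ESAM reads was 0.951 to 1.16 over the 6 libraries. In edgeR's quasi-likelihood test neither passed after Benjamini-Hochberg adjustment over all 15933 genes: the log2 fold of high over low was -0.58 for CLDN5 (limma-voom standard error 0.17, adjusted p = 0.527) and -0.57 for ESAM (standard error 0.17, adjusted p = 0.525).

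PECAM1 (CD31), which is also carried by platelets and leukocytes, measured 162.3, 147.9 and 71.5 CPM in the high IMF libraries and 187.4, 179.7 and 175.1 CPM in the low ones. The groups did not overlap on this scale, but high IMF replicates 1 and 2 lay close under the low IMF range while replicate 3 was far below it. The means were 127.2 ± 48.8 and 180.7 ± 6.22 CPM (log2 fold -0.51, edgeR adjusted p = 0.825). Without high IMF replicate 3 the log2 fold was -0.23. CDH5 measured 183.9, 124.6 and 81.4 CPM in the high IMF libraries, a spread that took in all 3 low IMF values of 144.2, 156.5 and 164.8 CPM. Its means were 130 ± 51.4 and 155.2 ± 10.4 CPM (log2 fold -0.26, edgeR adjusted p = 0.925). CDH5 had a log2 fold of -0.01 with high IMF replicate 3 left out and of -0.60 with high IMF replicate 1 left out.

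The transcription factor ERG had no overlap between the groups in CPM. It measured 23.9, 23.5 and 13.2 CPM in the high IMF libraries and 32.6, 29.7 and 33.0 CPM in the low ones. High IMF replicates 1 and 2 were alike and replicate 3 was lower again. The means were 20.2 ± 6.05 and 31.8 ± 1.80 CPM, a log2 fold of -0.65 (limma-voom standard error 0.24, edgeR adjusted p = 0.633). This was the lowest log2 fold among the 10 genes, and it was -0.43 without high IMF replicate 3.

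Von Willebrand factor (VWF), the clotting protein that endothelial cells store in Weibel-Palade bodies, measured 155.3, 163.6 and 87.0 CPM in the high IMF libraries and 256.5, 151.1 and 161.1 CPM in the low ones. Low IMF replicate 1 stood 1.64 times above the mean of the other low IMF libraries, and high IMF replicates 1 and 2 fell within the range of those others or just above it. The means were 135.3 ± 42.0 and 189.5 ± 58.2 CPM (log2 fold -0.49, edgeR adjusted p = 0.846), and the log2 fold was -0.21 without low IMF replicate 1 and -0.25 with high IMF replicate 3 left out. EMCN encodes endomucin, a sialomucin of capillary and venous endothelium. It measured 62.2, 45.6 and 34.8 CPM against 72.1, 49.9 and 53.1 CPM, with low IMF replicate 1 the highest library and overlap between the groups. Its log2 fold was -0.30 (edgeR adjusted p = 0.892), and with 1 library left out it ran from -0.55 (without high IMF replicate 1) to -0.12 (without high IMF replicate 3).

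NOS3, which makes the nitric oxide that relaxes vessels, measured 21.6, 15.3 and 12.4 CPM in the high IMF libraries and 14.9, 21.1 and 19.8 CPM in the low ones. The groups overlapped, with the highest value in high IMF replicate 1 and a low value in low IMF replicate 1 (log2 fold -0.18, edgeR adjusted p = 0.937). The log2 fold of NOS3 was -0.44 when high IMF replicate 1 was left out and -0.02 when replicate 3 of that group was. EGFL7, a secreted protein of the vessel wall matrix whose gene also hosts the microRNA miR-126, measured 163.2, 180.6 and 265.2 CPM against 216.8, 249.7 and 230.8 CPM. Here high IMF replicate 3 was the highest of the 6 libraries and the other 2 high IMF libraries were the lowest. The means were 203.0 ± 54.6 and 232.5 ± 16.5 CPM (log2 fold -0.20, edgeR adjusted p = 0.927), and the log2 fold was -0.44 without high IMF replicate 3 but -0.08 with replicate 1 of that group left out instead. ROBO4, a roundabout receptor that steadies the endothelial barrier, varied little. It measured 102.1, 79.8 and 109.3 CPM against 102.1, 108.1 and 104.2 CPM, a highest library 1.37 times the lowest, with overlap (log2 fold -0.11, edgeR adjusted p = 0.943).

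**Figure D2:**
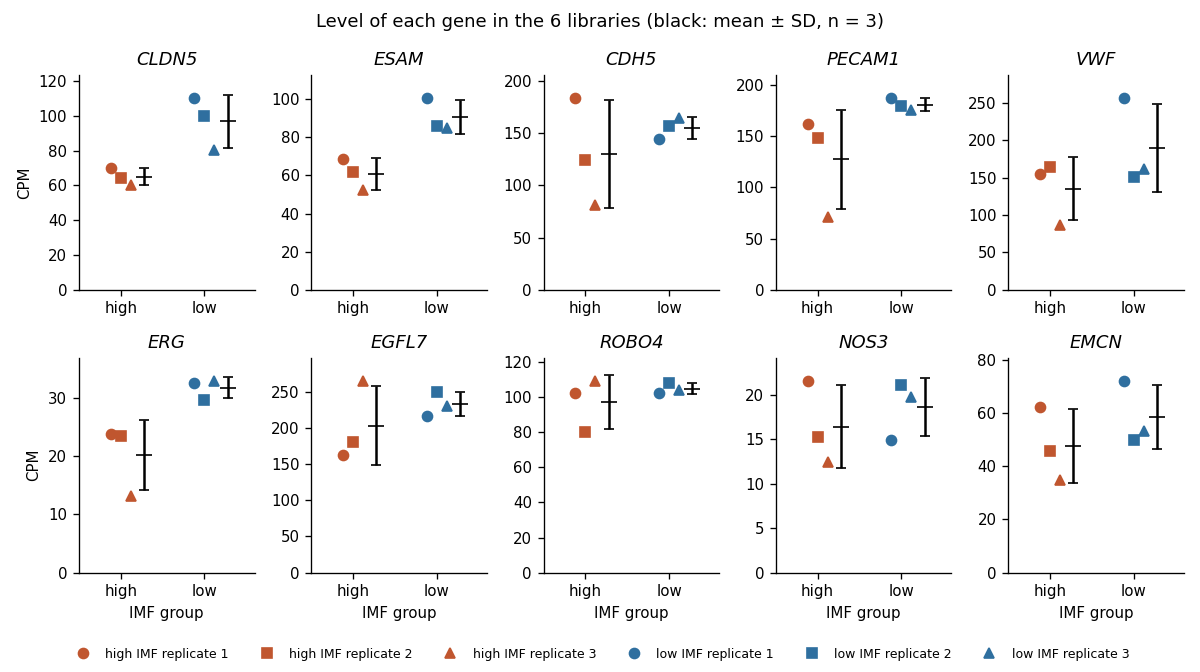
CPM of each gene in the 3 high and 3 low IMF libraries, with mean ± SD (n = 3) in black. On this TMM-scaled measure the groups are apart for CLDN5, ESAM, PECAM1 and ERG and overlap for the other 6 genes.

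All 10 genes had a negative log2 fold in edgeR, from 1 set of libraries that they share, and the median was -0.39, beside 0.01 for all genes tested, of which 48.8% had a negative log2 fold. In TMM-scaled CPM, to which all statements on overlap refer unless FPKM is named, 4 of the 10 had high IMF libraries entirely below low IMF libraries, a pattern seen in 6.1% of all genes tested, and 0 had the reverse, seen in 6.86%. At an unadjusted p under 0.05 in edgeR 3 of the 10 were lower (CLDN5, ESAM and ERG) and 0 higher, where 2.74% of all genes were lower at that level and 4.53% higher. None passed the adjusted threshold of 0.05, nor did any other gene in edgeR (0 of 15933, 0.0%; 1158 genes, or 7.27%, had an unadjusted p under 0.05). The DESeq2 Wald test called 194 of 16775 genes (1.16%) and none of the 10, for which its smallest adjusted p was 0.184 (ESAM). In the authors' deposited table the adjusted p was 0.187 for CLDN5, 0.185 for ESAM and 0.395 for ERG, and the log2 fold was -0.587, -0.58 and -0.662. The 95% intervals from limma-voom ran from -0.97 to -0.16 for CLDN5, from -0.97 to -0.18 for ESAM and from -1.25 to -0.11 for ERG, without adjustment for the number of genes. Those of the other 7 genes included 0 (from -0.52 to 0.28 for ROBO4, the narrowest of the 7). With library size as the only scaling, which moved the median of all genes to 0.15, the median of the 10 genes was -0.22, 8 of them stayed negative and 0 had an unadjusted p under 0.05. On that scaling 0 of the 10 had the high IMF libraries entirely below the low ones, beside 2.57% of all genes tested. ROBO4 (0.02) and NOS3 (0.01) turned positive there.

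**Figure D3:**
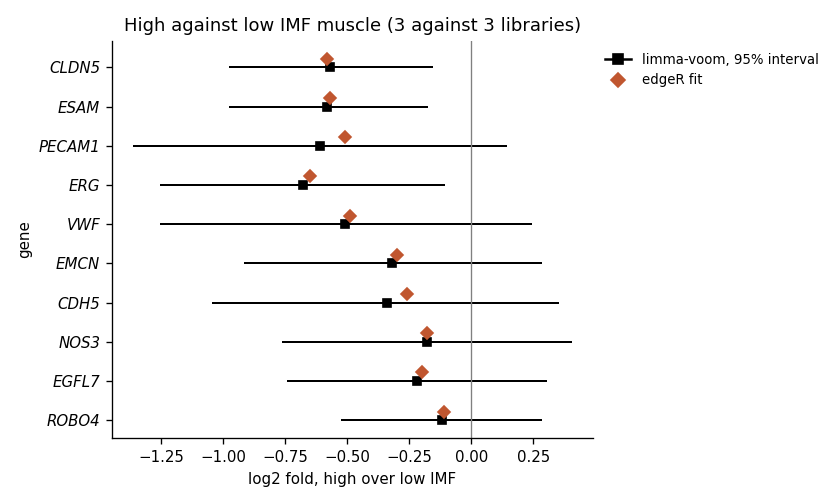
Log2 fold of high over low IMF for the 10 genes, with the limma-voom estimate and its unadjusted 95% interval in black and the edgeR fit as an orange diamond. All 10 lie below 0, and the intervals of CLDN5, ESAM and ERG leave out 0.

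The 10 genes did not vary as a block. On the log2 scale, relative to each gene's mean over the 6 libraries, the median of the 10 was 0.01, -0.17 and -0.53 in the high IMF libraries and 0.37, 0.22 and 0.15 in the low ones. High IMF replicate 3 was the lowest library for 8 of the 10 genes, where it was the lowest for 21.9% of all genes tested. The exceptions were EGFL7 and ROBO4, for which it was the highest. PECAM1 was at -1.04 in that library and EGFL7 at 0.31. As a result EGFL7 had 3.71 reads for each PECAM1 read in high IMF replicate 3 and 1.01 to 1.39 in the other 5 libraries. Low IMF replicate 1 was the highest library for 5 genes, namely CLDN5, ESAM, PECAM1, VWF and EMCN, and it stood out for VWF (0.73). It was the highest library for 23.4% of all genes tested.

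By root mean square distance between these profiles over the 6 libraries, in log2 units, CLDN5 and ESAM were nearest to each other (0.10), as were PECAM1 and ERG (0.12), CDH5 and NOS3 (0.17) and EGFL7 and ROBO4 (0.20). VWF lay nearest to EMCN (0.21), and the farthest pair was PECAM1 and EGFL7 (0.62). These distances rest on 6 libraries and describe them only. ESAM and ROBO4 are neighbours on 1 chromosome in the RefSeq assembly EquAss-T2T_v2, with 3 genes between them, but the profile of ROBO4 lay nearest to EGFL7 and that of ESAM to CLDN5. To remove the scaling between libraries, each gene was also set against the mean log2 level of the 10 genes in the same library. ESAM then stood at -0.23, -0.18 and -0.08 in the high IMF libraries and 0.08, -0.05 and -0.05 in the low ones, still without overlap, a difference of -0.16. CLDN5 differed by -0.15 and ERG by -0.29, with overlap for both, and ROBO4 by 0.29 the other way. Without high IMF replicate 3 the differences of ERG and ROBO4 were -0.16 and 0.05, and those of EGFL7 and PECAM1 went from 0.19 to -0.17 and from -0.18 to 0.04. With 3 libraries against 3 an exact two-sided test of such a value cannot reach 0.05, so these values are given without one.

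**Figure D4:**
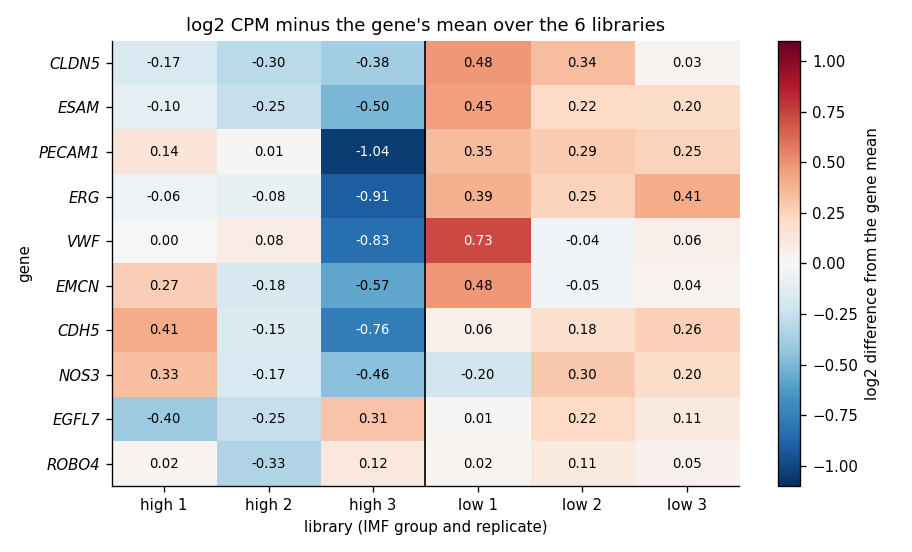
Log2 CPM of each gene minus its mean over the 6 libraries (blue low, red high), with similar genes placed together. The column of high IMF replicate 3 is blue for the first 8 genes, down to -1.04 for PECAM1, and red for EGFL7 and ROBO4.

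For 3 of the 10 genes the RefSeq table lists an overlapping gene, and the authors' treatment of strand is not given, so shared reads cannot be told apart. ATG9B, which overlaps NOS3, had at most 0.348 CPM, far under NOS3. VSIG2, which overlaps ESAM, measured 18.4 to 32.3 CPM and was highest in high IMF replicate 3, where ESAM was lowest. The gene that overlaps ERG is a long noncoding RNA and was not analysed here.

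Partners of these genes at the junction lay in both directions. Of 21 junction genes, all tested, 2 were lower and 1 higher at an unadjusted p under 0.05 in edgeR. Over all genes tested the shares were 2.74% lower and 4.53% higher. None of the 21 passed the adjusted threshold, and their median log2 fold was 0.04. The 2 lower genes also belong to tight junctions. TJP1 (ZO-1), the scaffold under claudins, measured 125.2, 108.0 and 64.1 CPM in the high IMF libraries and 157.4, 160.9 and 166.9 CPM in the low ones (log2 fold -0.71, edgeR adjusted p = 0.623). F11R (JAM-A), an adhesion molecule of tight junctions in endothelium, epithelium and blood cells, measured 44.5, 42.0 and 30.6 CPM against 57.0, 57.5 and 57.5 CPM (log2 fold -0.56, edgeR adjusted p = 0.560). For both the groups did not overlap, a pattern in this direction seen in 6.1% of all genes tested. The higher gene was CGN, the epithelial junction protein cingulin, at 0.0485 to 0.685 CPM close to the limit of detection (a count of 3 reads is 0.0632 to 0.0768 CPM before the scaling). CDH2, or N-cadherin, measured 0.597, 4.03 and 3.51 CPM against 0.0834, 1.04 and 1.07 CPM, with overlap. Its value in low IMF replicate 1 was also close to that limit.

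Among 20 tested transcription factors of endothelium 2 were lower and 1 higher at an unadjusted p under 0.05 in edgeR. Over all genes these shares were 2.74% and 4.53%, and the median log2 fold of the 20 was -0.09. Both lower genes are targets of Notch signalling. HEY1 measured 16.5, 9.27 and 5.33 CPM in the high IMF libraries and 29.8, 29.3 and 24.2 CPM in the low ones, without overlap (log2 fold -1.42). The edgeR adjusted p was 0.523. It ranged from 0.0371, in DESeq2, to 1.0 over the alternative settings. HEY2 measured 1.5, 3.47 and 1.25 CPM against 7.34, 5.43 and 3.36 CPM (log2 fold -1.37, edgeR adjusted p = 0.611). TAL1, a factor of blood and endothelial development, lay the other way without overlap, at 8.35, 11.2 and 12.1 CPM against 7.75, 5.65 and 5.25 CPM (log2 fold 0.76, edgeR adjusted p = 0.571). GATA2, a blood and endothelial factor, measured 27.1, 16.4 and 11.8 CPM against 24.8, 30.6 and 27.4 CPM, with overlap.

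Around NOS3, 17 genes of nitric oxide signalling and caveolae were tested (median log2 fold -0.16). Of these, 0 reached an unadjusted p under 0.05 in edgeR in either direction, where 7.27% of all genes did. CAVIN2, a coat protein of the caveolae in which NOS3 sits, had the groups apart at 73.7, 64.1 and 28.7 CPM in the high IMF libraries and 96.3, 88.5 and 78.2 CPM in the low ones (log2 fold -0.66, edgeR adjusted p = 0.752). The caveolar gene CAV2 had a log2 fold of -0.48, and GCH1, which makes the cofactor that NOS3 needs, one of 0.56, both with overlap. PRKG1, the kinase that answers to cyclic GMP, had one of 0.51 with overlap.

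Of 23 receptors and surface proteins of vessels, 18 had a negative log2 fold (median -0.22), beside 48.8% of all genes. At an unadjusted p under 0.05 in edgeR 2 were lower and 0 higher, beside 2.74% and 4.53% of all genes. FLT1, the VEGF receptor that also acts as a decoy, measured 64.2, 66.0 and 46.6 CPM in the high IMF libraries and 122.2, 117.8 and 129.4 CPM in the low ones (log2 fold -1.06). The edgeR adjusted p was 0.415, and the alternatives gave 0.000663 (DESeq2) to 1.0. CLEC14A, an endothelial C-type lectin, measured 36.9, 52.3 and 29.6 CPM against 102.8, 74.1 and 73.9 CPM (log2 fold -1.08). The edgeR adjusted p was 0.510, and the alternatives gave 0.0316 (DESeq2) to 1.0. CD93, another lectin of the same family, lay the other way, at 208.5, 202.4 and 141.3 CPM against 49.9, 140.8 and 139.8 CPM (log2 fold 0.74, edgeR adjusted p = 0.770), the groups separated by a narrow margin. Low IMF replicate 1 was far below the other libraries, and without it the log2 fold of CD93 was 0.38. CD34, a sialomucin of capillaries and progenitor cells, measured 135.5, 111.9 and 69.3 CPM against 122.3, 123.9 and 123.8 CPM, and the angiopoietin co-receptor TIE1 44.7, 35.2 and 29.7 CPM against 48.9, 42.2 and 43.9 CPM, both with overlap. High IMF replicate 3 was the lowest library for 20 of the 23 genes, beside 21.9% of all genes tested.

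Of the 7 genes of ROBO receptors, SLIT ligands and the ROBO4 partner UNC5B, 6 were tested. UNC5B was higher at an unadjusted p under 0.05 in edgeR, as were 4.53% of all genes. It measured 15.8, 12.6 and 12.02 CPM in the high IMF libraries and 7.38, 10.4 and 9.60 CPM in the low ones (log2 fold 0.56, edgeR adjusted p = 0.639). ROBO1, SLIT2 and SLIT3 had log2 folds of 0.23, 1.43 and 0.09 with overlap, and that of SLIT2 was 0.47 without high IMF replicate 3. Of 10 tested genes for the storage, release and clearance of VWF (median log2 fold -0.03), 0 reached an unadjusted p under 0.05 in edgeR. Over all genes 7.27% did. The endothelin gene EDN1, like VWF, had its highest level in low IMF replicate 1, as did 23.4% of all genes tested. It measured 4.63 CPM there against 0.116 to 1.24 CPM in the other 5 libraries. Its lowest value, in high IMF replicate 3, was close to the limit of detection. RAB3D and STXBP5, which act in release from storage granules, had log2 folds of -0.39 and 0.35, and the scavenger receptor STAB2 one of 0.72 (0.10 without high IMF replicate 2), all with overlap.

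Marker genes of capillaries, arteries and veins were taken as separate lists. All 7 capillary markers had a negative log2 fold (median -0.81). For 5 the groups did not overlap, beside 6.1% of all genes in this direction. The same 5 had an unadjusted p under 0.05 in edgeR, where 2.74% of all genes were lower at that level. BTNL9, a butyrophilin-like gene of capillary endothelium, measured 55.7, 36.1 and 36.2 CPM in the high IMF libraries and 175.0, 112.6 and 118.1 CPM in the low ones, 3.17-fold higher in low IMF muscle. The edgeR adjusted p was 0.325, and the alternatives gave 1.07e-05 (DESeq2) to 1.0. CD36, a fatty acid transporter of capillaries that muscle fibres and adipocytes carry as well, measured 170.0, 135.9 and 130.1 CPM against 276.7, 228.4 and 226.4 CPM (log2 fold -0.75, edgeR adjusted p = 0.510, with 0.0417 in DESeq2 to 1.0 over the alternatives). The other 3 of the 5, named after their values were seen, were GPIHBP1, which anchors lipoprotein lipase to the capillary wall (log2 fold -0.81), the carbonic anhydrase CA4 (-1.16) and RGCC (-0.81). The fatty acid carrier FABP4 measured 101.8, 93.8 and 34.8 CPM against 128.8, 105.6 and 94.1 CPM, with overlap by 1 high IMF library. MFSD2A, a lipid transporter also named after its values were seen, measured 1.68, 0.957 and 0.840 CPM against 17.1, 0.461 and 0.559 CPM. Its log2 fold of -2.38 was set by low IMF replicate 1 alone: without that library it was 1.17, and 6 of the 7 capillary markers were negative (median -0.66).

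The 8 arterial markers had a median log2 fold of -0.33. HEY1 and the semaphorin SEMA3G, 2 of the 8, were lower at an unadjusted p under 0.05 in edgeR, beside 2.74% of all genes. SEMA3G measured 47.2, 46.3 and 17.0 CPM in the high IMF libraries and 65.8, 86.7 and 68.1 CPM in the low ones (log2 fold -1.0, edgeR adjusted p = 0.636). The gap junction gene GJA5 had a log2 fold of -0.56, and the Notch ligand DLL4 one of -0.10 that changed sign with the settings. Of the 6 venous markers 5 had a positive log2 fold (median 0.16), where 48.8% of all genes had a negative one. The leukocyte adhesion gene SELE, named after its values were seen, was higher at an unadjusted p under 0.05 (log2 fold 1.25, edgeR adjusted p = 0.650). At that level 4.53% of all genes were higher. NR2F2, the factor that sets venous identity, the ephrin receptor EPHB4 and the apelin receptor APLNR had log2 folds of 0.21, 0.10 and -0.22, all with overlap. Whether capillary and venous markers differ from each other was not tested.

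**Figure D5:**
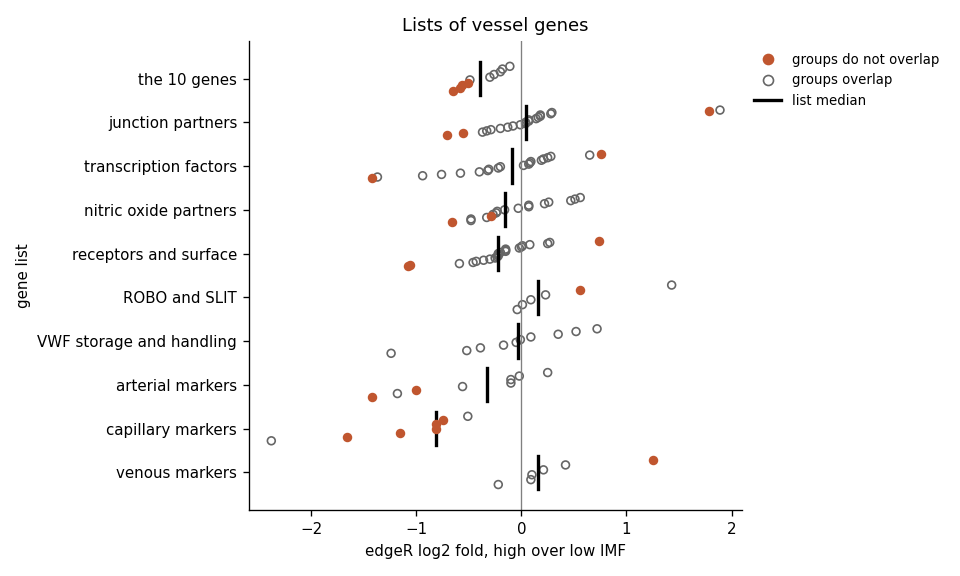
Log2 fold of high over low IMF for each tested gene of the vessel lists, with filled points where the groups do not overlap and a bar at the list median. The capillary markers sit lowest, with a median of -0.81, and the 10 genes have a median of -0.39.

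Levels of other cell types moved between the same libraries, and their part in these values was not tested. Fibroblast markers (8 of 8 tested) summed to 1424, 1152 and 261.3 CPM in the high IMF libraries and 312.7, 700.6 and 767.3 CPM in the low ones, with high IMF replicate 3 again the lowest. Smooth muscle and pericyte markers (10 of 10 tested) summed to 945.0, 1167 and 871.0 CPM against 1152, 1691 and 1552 CPM. Leukocyte markers (10 of 10 tested) summed to 152.7, 102.4 and 42.9 CPM against 66.9, 63.6 and 59.2 CPM, and adipocyte markers (6 of 7 tested) to 93.2, 394.0 and 31.8 CPM against 14.7, 100.6 and 72.3 CPM. Platelets carry ESAM, PECAM1 and VWF as well. Platelet markers (5 of 8 tested) summed to 16.1 to 18.6 CPM in the high IMF libraries and 18.9 to 21.2 CPM in the low ones, and the platelet chemokine PPBP was at 0 reads in 5 of the 6 libraries. Red cell markers (1 of 7 tested) summed to 14.4 CPM in high IMF replicate 1 and to 0.462 to 2.38 CPM in the other 5 libraries.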

How the data were processed

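Whole-number read counts per gene for 6 libraries were taken as the authors deposited them. The submitters' processing notes name HISAT2 and the build mm9, a mouse build, while the gene names are those of donkey and horse genes. No source used here gives the counter, annotation or strand setting, so no coordinates are printed. The FPKM values are the authors' own and were used for levels per length only. The deposited ratio (fold change), log2 fold and p-values are the authors' comparison of high over low IMF and are named where used. The per-sample files equalled the series' table (0 cells differed).

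Counts were tested in edgeR 4.0.16 (R 4.3.3) with TMM scaling, filterByExpr and the quasi-likelihood test, with Benjamini-Hochberg adjustment over 15933 genes. Standard errors and intervals came from limma 3.58.1. The script was tested on simulated counts. CPM values are on TMM-adjusted library sizes. Alternatives were DESeq2 1.42.0 size factors, library size only, no filter, a stricter one (at least 10 reads in 3 libraries and 1 CPM on average), the DESeq2 Wald test, limma-voom, a replicate block, low IMF replicates 2 and 3 summed, and leaving out each library. Some list genes were found under 5 older symbols or by gene identifier in a RefSeq table.

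The 10 genes, the 17 other lists and the naming rule were chosen with earlier results of these data known. Named were the 10 genes, up to 4 genes of smallest p per vessel list, up to 3 of highest CPM per segment list, FLT1 and CD34, and the 5 genes of nearest profile, 1 of which is not reported here. Counting intervals cover counting error only.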

Additional observations from a re-analysis of the deposited data

How the results depend on the processing

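None of the 10 genes passed the adjusted threshold under any of the 14 alternatives, and CLDN5 and ESAM kept a log2 fold between -0.70 and -0.42 throughout. The number of the 10 with an unadjusted p under 0.05 was 2 to 4, except for 0 with library size only. The share of all genes at that level was 7.27% in the main edgeR fit. It was not counted for the alternatives, so these numbers have no like share beside them. Over all genes the number past the adjusted threshold was 0 in edgeR, 194 in the DESeq2 Wald test and 0 to 3 with 1 library left out (3 without high IMF replicate 1). The other lists hold 176 distinct genes of the count table. Over them this number was 0 in edgeR and 7 in DESeq2 (BTNL9, CD36, CIDEA, CLEC14A, FLT1, HEY1 and MYH11). DESeq2 called 1.16% of all genes, and the lists were chosen with earlier results of these data known. Signs turned with library size only for ROBO4 (0.02), NOS3 (0.01) and DLL4 (0.07). DLL4 also turned in limma-voom (0.10) and with low IMF replicates 2 and 3 summed (0.14). With 1 library left out, the log2 fold ranged from -0.51 to 0.17 for DLL4, from -0.11 to 0.66 for ROBO1, from -0.79 to 0.44 for SLIT3, from -0.13 to 0.35 for EPHB4, from -1.70 to 0.25 for EDN1, from -0.52 to 0.00 for APLNR and from -0.45 to 0.00 for CD34. The cause was not tested. The deviations of same-numbered libraries from their group means correlated at 0.196, 0.149 and 0.0197 over all genes tested. Libraries of unlike number were not compared in this way, and the numbers were not taken as pairs. With the replicate number as a block, 0 genes passed the threshold, and SLIT3 (-0.07) and DLL4 (0.09) changed sign. The differences between the 10 genes within a library are nearly the same in FPKM by construction. With 1 library left out they moved. That of EGFL7, 0.19 with all libraries, ranged from -0.17 to 0.45, beside an SD of 0.64 in the high and 0.15 in the low IMF libraries. Of the 10 genes, 4 changed sign in some case (CDH5, EGFL7, PECAM1 and VWF). Depth did not limit the 10 genes, whose lowest count was 429 reads, but CGN was near the floor. So were CDH2 in low IMF replicate 1 (0.0834 CPM) and EDN1 in high IMF replicate 3 (0.116 CPM).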

Other observations

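Lymphatic endothelium shares PECAM1 and EGFL7 with blood vessels but carries its own markers. The 7 lymphatic markers, all tested, had a median log2 fold of 0.43, beside -0.39 for the 10 endothelial genes, a difference that was not tested. Relative to the mean of each gene, their median on the log2 scale was 0.59, 0.80 and -0.90 in the high IMF libraries and -0.62, 0.24 and 0.06 in the low ones. The library of high IMF replicate 3 was again the lowest, and the groups overlapped. None of the 7 reached an unadjusted p under 0.05 in edgeR, where 7.27% of all genes did.

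Among the genes outside the 10 whose profiles over the 6 libraries lay nearest to the median profile of the 10 were CTSH, PLXNA4, TRIM35 and BMP6, with root mean square distances of 0.044, 0.051, 0.060 and 0.066 on the log2 scale. Among the 10 only ESAM came about as close (0.070), and EGFL7 lay at 0.410, near the median of 0.405 over 12073 genes of at least 1 CPM with a symbol. A distance of up to 0.2 was reached by 417 of these 12073 genes and, among the 10, by ESAM, CLDN5 (0.138), EMCN (0.165) and ERG (0.192). The median profile was taken from the 10 genes themselves, so their own distances to it are no independent measure. Whether the 417 include vessel genes was not tested.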
